A study of Mus musculus with 32 samples.

Results

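The 42 genes described here are type I interferon-stimulated genes, chosen by name from a list of known interferon targets, and 42 of 42 were found among the 22329 genes of the deposited expression table. They were followed in MC38, a mouse colon adenocarcinoma cell line, in an anti-PD-1 resistant form and in the parental form. Anti-PD-1 is an antibody that blocks an inhibitory receptor of T cells. RNA was sequenced from 12 resistant and 13 parental tumors, grown under the skin of C57BL6/J mice that received no treatment, and from 5 resistant and 2 parental libraries of untreated cultured cells. The labels do not say how the resistant line was made, whether it is 1 clone, or how old the mice were. Values are in TPM, the share of a transcript in its library per unit of length, and no read totals are given, so sequencing depth is unknown. All tumor titles carry one prefix and all culture titles another, so growth in the mouse and the handling of the libraries cannot be told apart. Markers of the labelled cell type were near absent: 8 genes of colon epithelium and carcinoma, among them Epcam, Krt8 and Krt18, summed to medians of 2.76 TPM in resistant tumors, 4.11 in parental tumors, 0.111 in resistant culture and 3.89 in parental culture.

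Type I interferons bind a receptor made of Ifnar1 and Ifnar2, whose kinases Jak1 and Tyk2 activate transcription factors such as Stat2. A complex of Stat2 and Irf9 binds interferon-stimulated response elements in promoters and switches on genes that sense viral RNA, degrade it, block its translation or modify proteins. Many tumor cell lines and tumor-infiltrating cells transcribe such genes at a low level without infection.

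Many promoters of the members hold the element through which the response is known to act. RefSeq promoter windows of 300 bases (250 before to 50 after a transcript start, build GRCm38.p6) were at hand for 31 members. Those with none were Mx1, Mx2, Usp18, Dhx58, Ifi27l2a, Rtp4, Zbp1, Oas2, Parp9, Parp14 and Ly6e. The core of the element, GAAANNGAAA or TTTCNNTTTC on the other strand, was found in 14 of these 31 members (45.2%), against 1079 of 27025 genes in the whole RefSeq table (3.99%). The element TTCNNNGAA, which reads the same on both strands and is known as the gamma-activated sequence, was found in 9 of 31 members (29%) and in 9.55% of all genes. A match of letters is a description and not evidence of binding. The stretches below are those of the 9 members with a match before the transcript start, in the direction of transcription and with matches of the core in capitals, to show the element and its copies. In Ddx58, Ifih1, Eif2ak2, Trim21 and Ifitm3 the matches lay after the start and are not printed. Isg15, Bst2 and Oas1a hold overlapping copies. The stretch in Ifit3 and that in Ifit3b are the same 74 bases.
Isg15 (chr4:156200860-156200911, minus strand): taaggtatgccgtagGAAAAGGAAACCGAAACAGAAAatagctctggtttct
Ifit1 (chr19:34640770-34640828, plus strand): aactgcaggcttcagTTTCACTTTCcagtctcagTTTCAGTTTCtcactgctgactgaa
Ifit3 (chr19:34583358-34583431, plus strand): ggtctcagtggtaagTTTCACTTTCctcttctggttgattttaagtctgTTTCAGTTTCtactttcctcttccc
Ifit3b (chr19:34607754-34607827, plus strand): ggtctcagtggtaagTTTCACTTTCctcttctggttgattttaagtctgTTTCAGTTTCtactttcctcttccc
Rsad2 (chr12:26456548-26456587, minus strand): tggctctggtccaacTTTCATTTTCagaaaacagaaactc
Bst2 (chr8:71537572-71537617, minus strand): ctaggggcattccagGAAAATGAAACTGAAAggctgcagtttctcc
Oas1a (chr5:120907526-120907560, minus strand): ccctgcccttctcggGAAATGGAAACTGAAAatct
Oas3 (chr5:120777710-120777749, minus strand): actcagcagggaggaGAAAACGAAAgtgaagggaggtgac
Trim30a (chr7:104465205-104465244, minus strand): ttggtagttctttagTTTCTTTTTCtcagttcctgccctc

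Both lines expressed most members in culture, where cells were untreated per the labels, with Ifitm3 at the top. Group means of at least 100 TPM were reached by 3 members in resistant culture and 6 in parental culture, and 5 and 3 members averaged under 1 TPM. Ifitm3, a membrane protein that blocks virus fusion, had 1579, 1011, 1041, 786 and 1073 TPM in the 5 resistant cultures and 1724 and 2036 TPM in the parental cultures (replicates in number order throughout). Ly6e, a lipid-anchored surface protein, had 1401, 409, 479.9, 457 and 527 TPM in resistant and 589 and 806 TPM in parental cultures. Bst2, or tetherin, which holds budding virus at the cell surface, had 310.1, 278, 231, 231 and 259 TPM in resistant and 276 and 721 TPM in parental cultures. These 3 genes had the highest mean in both cultured lines, and of the 3 Ifitm3 alone showed 2 groups that did not overlap. Lgals3bp, a secreted glycoprotein, had 55.7, 73.2, 55.7, 47.4 and 48.6 TPM in resistant cultures and 104 and 170.3 TPM in parental cultures. Its groups did not overlap. Samhd1, which breaks down the building blocks of DNA, had 85.3, 74.2, 64.9, 84.7 and 68.99 TPM in resistant and 95.5 and 130.0 TPM in parental cultures, and Oasl1 had 81.3, 67.3, 65.4, 65.7 and 92.4 TPM in resistant and 35.6 and 161 TPM in parental cultures. The resistant values lay below both parental ones in Samhd1 and between them in Oasl1. At the low end stood Ifit3b, the near copy of Ifit3, with 0.605, 0.965, 0.535, 0.379 and 0 TPM in resistant and 0 and 0.474 TPM in parental cultures. Mx1, a dynamin-like GTPase that traps viral particles, had 1.41, 1.14, 0.886, 0.218 and 0.197 TPM in resistant and 0.153 and 0.344 TPM in parental cultures. Its relative Mx2 had 0.788, 0.4297, 0.423, 0.968 and 1.18 TPM in resistant and 0 and 0.811 TPM in parental cultures. These 3 genes stayed at or below 1.41 TPM in all 7 cultures. In resistant culture Oas2 was lower still, with a mean of 0.319 TPM, against 4.81 TPM in parental culture. Ifit3b was listed at 0 in 1 resistant and 1 parental library, and Mx2 in 1 parental library. Ifit3 itself had 1.93, 2.38, 1.59, 0.458 and 0.934 TPM in resistant and 0.374 and 1.79 TPM in parental cultures.

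The 2 parental cultures stood far apart in these genes, and for 18 of 39 members tested all 5 resistant cultures lay between them. Parental culture replicate 2 was above replicate 1 for 41 of 42 members, with Herc6 as the exception (20.5 and 20.3 TPM). Isg15, a ubiquitin-like modifier, had 75.8, 89.3, 51.6, 48.002 and 47.5 TPM in the resistant cultures, against 33.5 and 198 TPM in parental cultures 1 and 2. Rsad2, or viperin, which makes a chain-terminating nucleotide, had 24.3, 15.1, 12.3, 9.26 and 13.8 TPM in the resistant cultures against 4.55 and 87.9 TPM in the parental ones, where replicate 2 was 19.3 times replicate 1. In both genes every resistant culture lay inside the parental interval. Across the 39 members tested in culture, the median log2(TPM + 1) difference of replicate 2 minus replicate 1 was 1.36, against 0.10 for all 11201 genes tested. A difference of more than 1 on that scale was met by 27 of the 39 members and by 4.76% of all genes. The share of members with all 5 resistant cultures between the parental pair was 46.2%, against 3.28% of all genes. The resistant cultures lay below both parental cultures for 5 members (Isg20, Oas3, Samhd1, Ifitm3 and Lgals3bp) and above both for 0. These counts were not made over all genes, so they have no share to be set against. Nothing in the labels sets the parental cultures apart, and a pair of libraries gives no test of their difference.

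**Figure D1:**
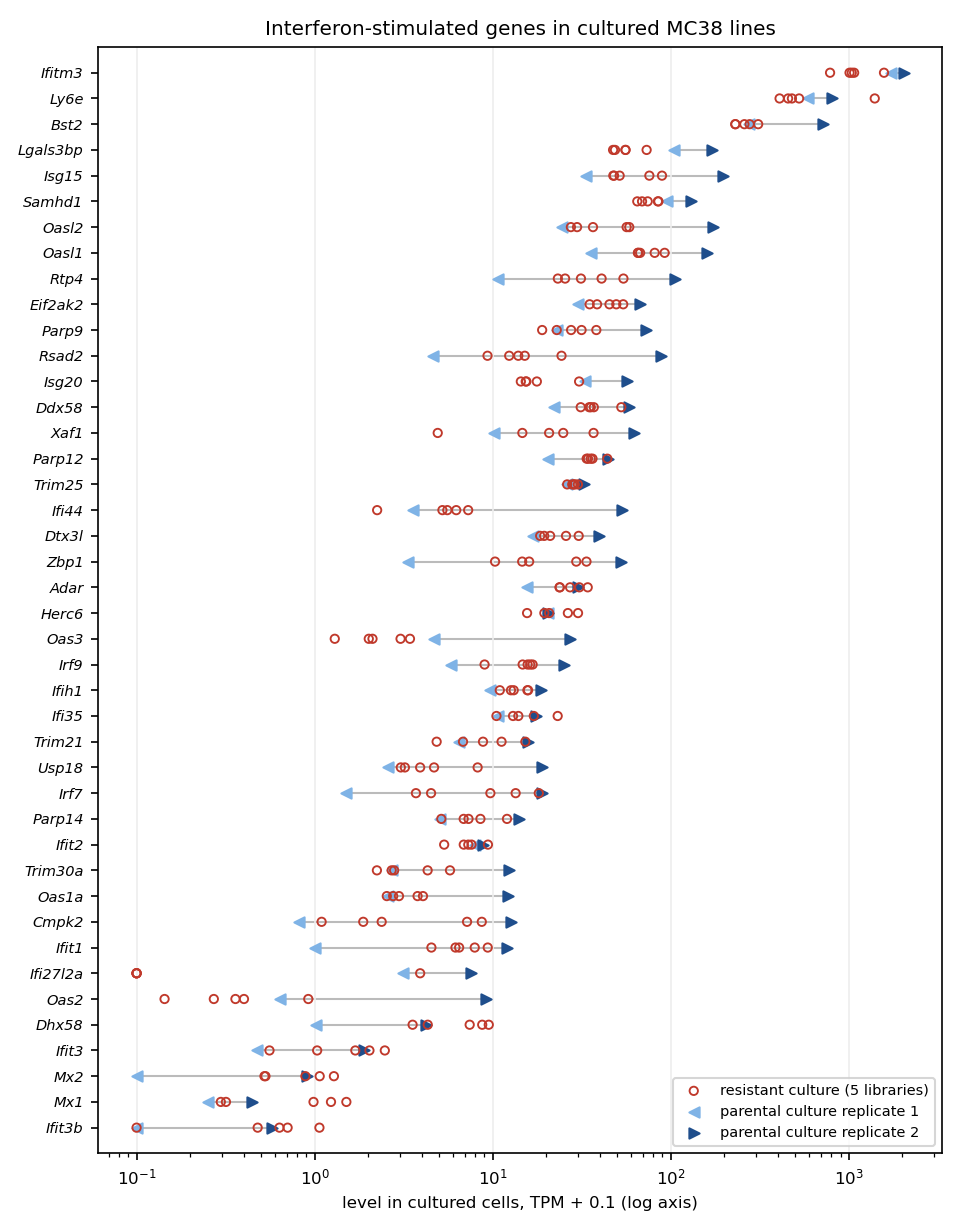
Levels of the 42 members in cultured cells, in TPM + 0.1 on a log axis, with 1 row a gene in order of mean level. Open circles are the 5 resistant cultures, and the triangles joined by a line are parental cultures 1 (pale) and 2 (dark); for 18 of the 39 members tested every circle lies between the triangles.

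The parental pair differed in most families of the list. The interferon regulatory factor Irf7, which drives more interferon transcription, had 18.1, 9.61, 3.61, 4.41 and 13.4 TPM in resistant cultures and 1.41 and 18.8 TPM in parental cultures. Irf9, the DNA-binding part of the complex with Stat2, had 14.6, 16.7, 8.91, 15.6 and 16.2 TPM in resistant and 5.73 and 25.2 TPM in parental cultures. Among the RNA sensors, Ddx58 (RIG-I) had 52.7, 36.9, 34.8, 35.5 and 31.2 TPM in resistant and 22.02 and 58.1 TPM in parental cultures, and every resistant culture lay inside the parental interval for all 3 genes. Ifih1 (MDA5), a sensor of long double-stranded RNA, had 12.6, 13.03, 15.7, 10.9 and 15.6 TPM in resistant and 9.63 and 18.7 TPM in parental cultures. Zbp1, a sensor of Z-form nucleic acid, had 29.4, 33.6, 15.9, 10.2 and 14.6 TPM in resistant and 3.25 and 52.2 TPM in parental cultures. Usp18, the protease that removes Isg15 and damps receptor signaling, had 3.82, 8.14, 3.11, 2.95 and 4.59 TPM in resistant and 2.47 and 18.8 TPM in parental cultures. For these 3 genes too the resistant values lay inside the parental interval. The synthetase Oas1a had 2.88, 3.69, 2.66, 2.44 and 3.96 TPM in resistant and 2.49 and 12.03 TPM in parental cultures, and its relative Oasl2 had 56.5, 58.5, 27.4, 29.7 and 36.5 TPM in resistant and 24.4 and 174 TPM in parental cultures. The parental ratios of replicate 2 over replicate 1 were 17.5 for Cmpk2, a nucleotide kinase encoded next to Rsad2, 16.8 for Oas2, 16.1 for Zbp1, 15.2 for Ifi44, 13.3 for Irf7 and 13.2 for Ifit1.

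The line comparison in culture asked whether the resistant cells differ in these genes without the mouse. By limma on log2(TPM + 1), with p-values adjusted over the whole table by Benjamini and Hochberg's method and called under 0.05 (as for every call here), 0 of 39 members were higher, 4 were lower and 35 were not called. At an unadjusted p under 0.05 there were 1 higher and 7 lower, a count that was not made over all genes. Of all genes, 6.15% were called higher and 8.04% lower at the adjusted threshold. The median log2 fold change was -0.19 over the members and -0.01 over all genes. Ifit3b, Mx2 and Oas2 were too low to be tested.

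The members lower in resistant culture were Oas3, Lgals3bp, Isg20 and Ifitm3. Oas3, one of the synthetases whose product activates RNase L, had 2.94, 3.33, 2.01, 1.198 and 1.92 TPM in resistant cultures against 4.57 and 27.1 TPM in parental cultures, a log2 fold change of -1.97 ± 0.54 (SE, adjusted p = 0.0403). Isg20, an RNA exonuclease, had 30.5, 15.3, 17.6, 14.3 and 15.4 TPM in resistant cultures against 33.02 and 56.7 TPM in parental cultures, a log2 fold change of -1.23 ± 0.31 (SE, adjusted p = 0.0296). All 5 resistant cultures lay below both parental ones in each gene. The values for Lgals3bp were -1.25 ± 0.22 (SE, adjusted p = 0.00698), and those for Ifitm3 were -0.81 ± 0.23 (SE, adjusted p = 0.0459). Every one of the 4 calls ended when parental culture replicate 2 was left out. Oas3, Isg20 and Ifitm3 also lost theirs when any 1 of resistant cultures 2 to 5 was left out, and Isg20 and Ifitm3 without parental culture replicate 1. The largest negative difference, that of Ifi27l2a, was not called at -2.09 ± 0.64 (SE, adjusted p = 0.0591): resistant cultures had 3.82, 0, 0, 0 and 0 TPM, with 4 of 5 listed at 0, and parental cultures 3.02 and 7.48 TPM. Ifi44 had 5.12, 7.19, 5.47, 2.15 and 6.15 TPM in resistant and 3.49 and 52.99 TPM in parental cultures and was not called, at -1.39 ± 0.78 (SE, adjusted p = 0.264).

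On the other side, the largest positive difference in culture was that of Dhx58 (LGP2), a helicase that tunes the other RNA sensors. It had 8.64, 9.41, 4.22, 7.33 and 3.45 TPM in resistant and 0.912 and 4.13 TPM in parental cultures, 1.202 ± 0.45 (SE, adjusted p = 0.109), and was not called. Ifit1, which binds viral RNA by its cap, had 9.29, 6.39, 6.09, 4.43 and 7.84 TPM in resistant and 0.902 and 11.9 TPM in parental cultures, 0.62 ± 0.60 (SE, adjusted p = 0.534). Adar, which edits double-stranded RNA, had 27.1, 30.6, 23.7, 34.1 and 23.8 TPM in resistant and 15.6 and 30.1 TPM in parental cultures, 0.33 ± 0.25 (SE, adjusted p = 0.423). The groups overlapped or nested in each of these genes. The next differences were 0.45 for Mx1, 0.44 for Irf7 and 0.40 for Zbp1, none of them called.

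The sign of most members depended on which parental culture was kept. Without parental culture replicate 1, 38 of 41 members tested lay below zero, with a median of -0.93 against -0.06 over all genes. Without replicate 2, 31 of 40 members lay above zero, with a median of 0.53 against 0.04 over all genes, and Ifit1 stood at 2.004. A single parental library gives no spread of its own.

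Nearly every member was higher in tumors than in culture, in both lines. In the resistant line 41 of 42 members were higher in tumors, 0 were lower and 1 was not called, while 35.3% of all genes were called higher and 15% lower. Against culture, parental tumors had 36 members higher, 0 lower and 6 not called, with 16.1% of all genes called higher and 5.99% lower. At an unadjusted p under 0.05 the count of members lower in tumors was 0 in either line, and it was not made over all genes. The median log2 fold change over the members was 2.71 in the resistant line and 2.04 in the parental line, against 0.18 and 0.21 over all genes. Every tumor was above every culture of its line for 39 members in the resistant line (17.3% of all genes) and for 29 in the parental line (19.6%). The median over members of the group mean was 110.2 TPM in resistant tumors and 89.4 TPM in parental tumors, against 15.2 TPM in resistant culture and 21.6 TPM in parental culture.

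Ptprc and 3 of 3 endothelial markers were also called higher in tumors than in culture, in both lines. Ptprc, the pan-leukocyte gene, had a median of 22.8 TPM in resistant tumors and 34.6 TPM in parental tumors, and at most 0.147 TPM in any culture. In bulk tissue more cells of a type and more RNA per cell cannot be told apart, and the part of host cells in the member levels was not tested.

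The largest rises reached more than 5 on the log2(TPM + 1) scale, which understates the change of genes near 0. Ifi27l2a had a lowest, median and highest level of 75.5, 97.5 and 262 TPM in resistant tumors, against at most 3.82 TPM in resistant culture, a log2 fold change of 6.32 ± 0.32 (SE, adjusted p = 8.37e-13). In parental tumors it had 111, 262 and 365 TPM, against 3.02 and 7.48 TPM in parental culture, a log2 fold change of 5.501 ± 0.34 (SE, adjusted p = 9.95e-10). Neither line's tumors overlapped its cultures. Irf7 had 242, 334 and 459 TPM in resistant tumors and 152, 292 and 413 TPM in parental tumors (lowest, median and highest, as for all tumor triples below), with log2 fold changes over culture, in the resistant line and then the parental line as for the next genes, of 5.15 and 5.38. Zbp1 had 527, 598 and 982 TPM in resistant tumors and 371, 528 and 827 TPM in parental tumors, and rose by 5.01 and 5.15. Ifit3 had 44.8, 66.03 and 114 TPM in resistant tumors and 38.98, 55.6 and 94.7 TPM in parental tumors, and rose by 4.96 and 4.89. Over all 7 cultures these genes stayed at or below 18.8 TPM (Irf7), 52.2 TPM (Zbp1) and 2.38 TPM (Ifit3), under the lowest tumor of either line. Mx1 had 21.3, 40.1 and 51.8 TPM in resistant tumors and 16.3, 34.8 and 47.8 TPM in parental tumors, against at most 1.41 TPM in culture, and rose by 4.53 and 4.81. Oas2 had 56.2, 81.96 and 105 TPM in resistant tumors and 37.5, 54.5 and 76.6 TPM in parental tumors. It rose by 5.94 over resistant culture, where it had 0.172, 0.259, 0.0436, 0.301 and 0.821 TPM, and by 3.803 over parental culture, where it had 0.539 and 9.08 TPM.

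Among the smallest differences were those of Trim25, a ubiquitin ligase that acts on RIG-I, Samhd1 and Ifitm3. Trim25 was not called in either line, at 0.30 in the resistant and 0.19 in the parental line. Samhd1 rose by 0.76 in the resistant line and was not called in the parental line at 0.31. Ifitm3 rose by 0.98 in the resistant line and was not called in the parental line at 0.66. Isg20 likewise rose by 1.69 in the resistant line and was not called in the parental line at 0.64. The other members not called in the parental line were Dtx3l (1.597) and Trim30a (2.11), which rose by 2.13 and 3.54 in the resistant line. Without parental culture replicate 1 the members' median rise in the parental line was 1.33, against 0.19 over all genes. Without replicate 2 it was 2.99, against 0.25 over all genes. The parental calls of Ifit2, Rsad2, Ddx58, Ifi44, Rtp4, Bst2, Cmpk2, Oas1a, Oas3, Oasl1, Eif2ak2, Parp12 and Adar ended without replicate 1. That fit had a single parental culture.

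**Figure D2:**
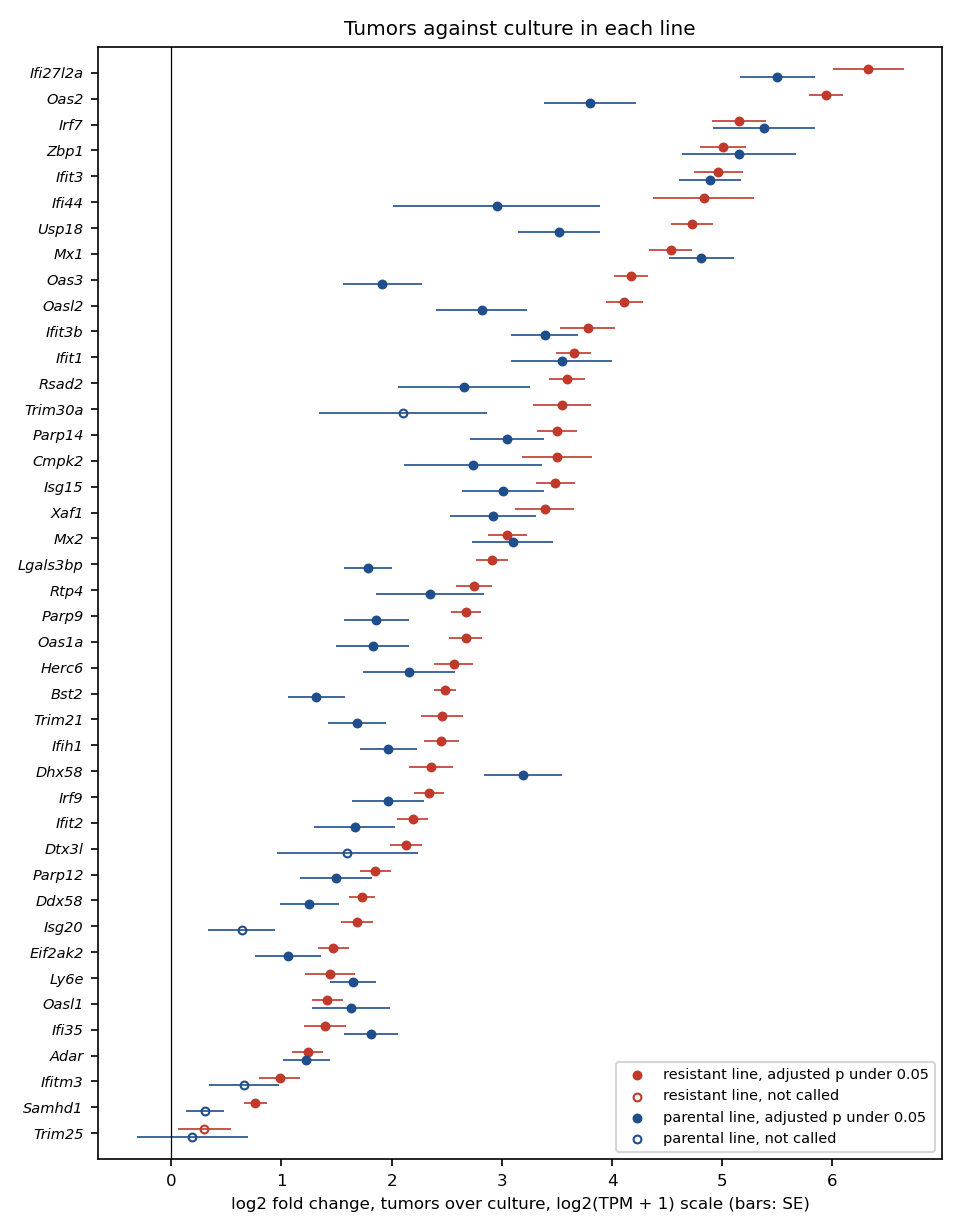
Log2 fold change of each member in tumors over culture, on the log2(TPM + 1) scale, in the resistant line (red) and the parental line (blue); bars are standard errors and filled points passed the threshold. All 42 members lie right of zero in both lines, from 0.30 to 6.32 in the resistant line and from 0.19 to 5.50 in the parental line.

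The comparison of untreated tumors asked how the resistant line differs from the parental line in mice given no treatment. Of the 42 members, 16 were higher in resistant tumors, 3 were lower and 23 were not called, against 16.3% of all 12095 genes called higher and 13.9% lower. The median log2 fold change was 0.34 over the members and 0.04 over all genes, and 33 of 42 members lay above zero. The members' median was 0.12 with a covariate for the GC index of the libraries, a measure from gene levels that is explained below. It was 0.17 without the 4 parental tumors in which that index was high. The called rises were small, from 0.29 to 0.73 on the log2 scale, and Ifi27l2a was the single call of at least 2-fold in either direction. The lines overlapped in every member, where 0.496% of all genes lay wholly higher and 0.546% wholly lower in resistant tumors.

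Of the transcription factors Irf7 and Irf9 and the sensors Ddx58, Ifih1, Dhx58 and Zbp1, 3 were higher in resistant tumors. Irf9 averaged 76.3 ± 12.4 TPM in resistant tumors (SD, n = 12) and 51.9 ± 9.94 TPM in parental tumors (n = 13), a log2 fold change of 0.56 ± 0.10 (SE, adjusted p = 0.000192). All 12 resistant tumors lay above the parental mean, and 9 above the highest parental tumor. Irf7 was not called, at 0.21 ± 0.13 (SE, adjusted p = 0.214). Ddx58 had 105, 128 and 163 TPM in resistant and 67.9, 84.4 and 115 TPM in parental tumors, a log2 fold change of 0.54 ± 0.10 (SE, adjusted p = 0.000125), with 10 of 12 resistant tumors above the highest parental one. Ifih1 had 50.6, 82.7 and 111 TPM in resistant and 35.6, 56.5 and 87.3 TPM in parental tumors, a log2 fold change of 0.48 ± 0.13 (SE, adjusted p = 0.00543). The third helicase of the family, Dhx58, was not called at 0.36 (adjusted p = 0.0648), nor was Zbp1 at 0.26 (0.109).

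The Isg15 system moved unevenly. Isg15 itself had 466, 721 and 1029.5 TPM in resistant tumors and 456, 672 and 818 TPM in parental tumors, and its log2 fold change was 0.04 ± 0.12 (SE, adjusted p = 0.825). Usp18 had 89.6, 138 and 202 TPM in resistant and 74.4, 93.2 and 135 TPM in parental tumors, with a log2 fold change of 0.55 ± 0.12 (SE, adjusted p = 0.000726) and 11 of 12 resistant tumors above the parental mean. Herc6, which attaches Isg15 to proteins in the mouse, had 93.96, 128 and 205 TPM in resistant and 24.97, 99.01 and 149.8 TPM in parental tumors and was not called (0.50, adjusted p = 0.0581).

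Among the families that act on viral RNA, the Ifit and Oas genes split into called and uncalled members. Ifit1 had 71.7, 93.5 and 138 TPM in resistant and 28.5, 64.6 and 79.7 TPM in parental tumors, the largest called rise at 0.73 ± 0.14 (SE, adjusted p = 0.000353), and 9 resistant tumors lay above the highest parental tumor. Ifit3b had 9.93, 20.6 and 34.5 TPM in resistant and 6.36, 11.4 and 17.7 TPM in parental tumors and rose by 0.66 ± 0.18 (SE, adjusted p = 0.00725). Ifit3 (0.34) and Ifit2 (0.33) were not called. Ifit3 and Ifit3b share 51.2% and 44.95% of their 50-base words with other genes, mostly each other, so how reads were split between them makes both values uncertain. The share was 12.5% for Herc6, 11.6% for Rtp4 and 10.02% for Ifitm3. Oasl2, an Oas-like protein, had 534, 709.6 and 873 TPM in resistant and 274, 481 and 624 TPM in parental tumors, with a log2 fold change of 0.59 ± 0.11 (SE, adjusted p = 0.00028) and all 12 resistant tumors above the parental mean. Oas2 rose by 0.53 ± 0.12 (SE, adjusted p = 0.00147) and Oas3 by 0.29 ± 0.10 (SE, adjusted p = 0.0368). Oasl1, which in the mouse restrains translation of Irf7, had 139, 198 and 260.1 TPM in resistant and 158, 256 and 318 TPM in parental tumors, at -0.26 (adjusted p = 0.105). Oas1a had 17.3, 25.2 and 34.4 TPM in resistant and 16.1, 22.03 and 30.7 TPM in parental tumors and was not called (0.12); it shares 57.6% of its 50-base words with Oas1g. Oas2 and Oas3, neighbours on chromosome 5, thus both passed, while of the adjacent pair Oasl1 and Oasl2 the second alone did.

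**Figure D3:**
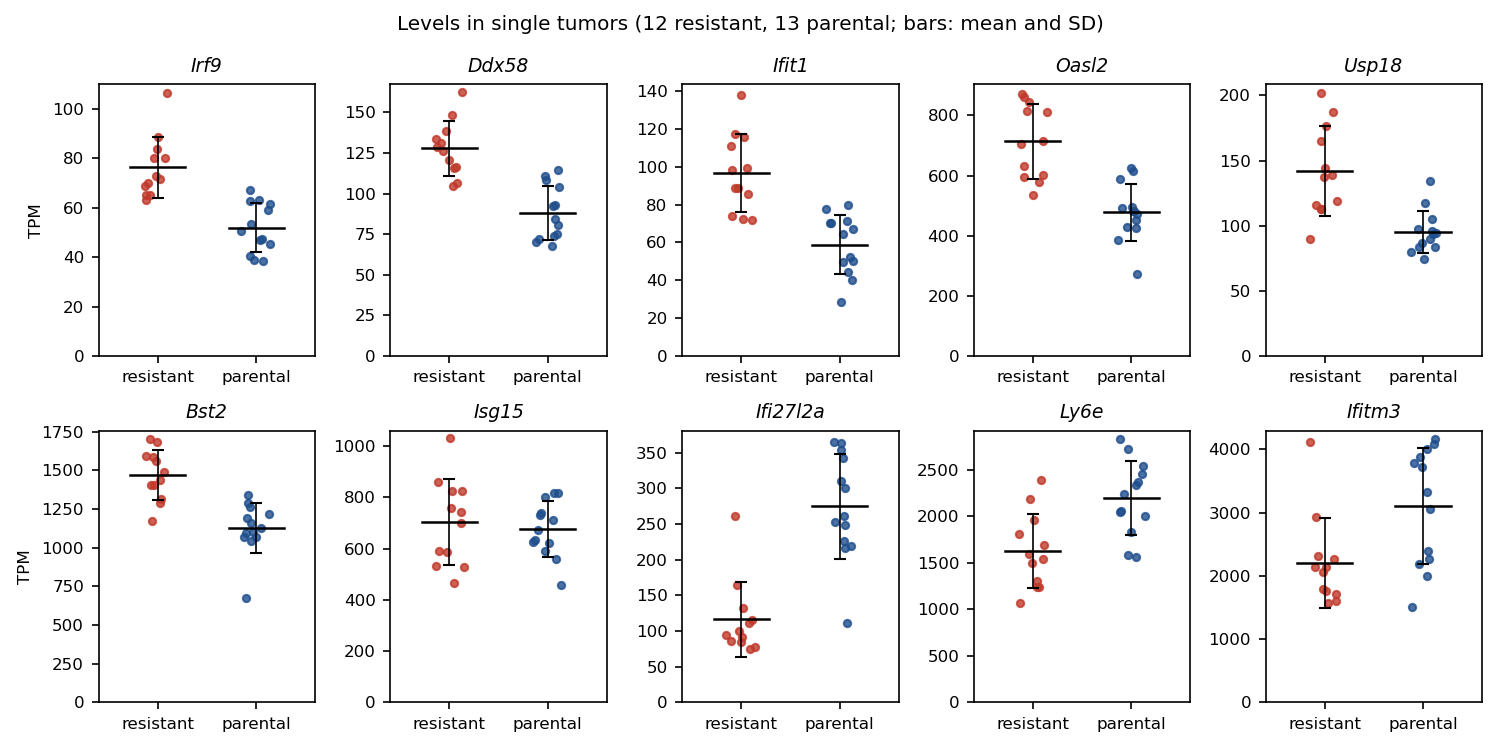
Levels of 10 members in single tumors, in TPM on linear axes that start at 0, with 12 resistant tumors left of 13 parental tumors in each panel; lines and bars are the mean and SD. Irf9, Ddx58, Ifit1, Oasl2, Usp18 and Bst2 lie higher in resistant tumors, Isg15 was not called at means of 703 and 675 TPM, and Ifi27l2a, Ly6e and Ifitm3 lie lower.

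Of the other antiviral effectors, Bst2 had 1170.0, 1461 and 1702 TPM in resistant and 678, 1129 and 1339 TPM in parental tumors, a log2 fold change of 0.39 ± 0.09 (SE, adjusted p = 0.00132) with all 12 resistant tumors above the parental mean. Adar had 46.8, 65.8 and 91.6 TPM in resistant and 40.03, 53.97 and 61.1 TPM in parental tumors and rose by 0.35 ± 0.10 (SE, adjusted p = 0.0118). In Adar 8 resistant tumors lay above the highest parental tumor. Eif2ak2 (PKR), the kinase that stops translation on double-stranded RNA, rose by 0.37 ± 0.13 (SE, adjusted p = 0.0331). Rsad2 had 145, 178 and 232 TPM in resistant and 79.5, 151 and 222 TPM in parental tumors and rose by 0.39 ± 0.15 (SE, adjusted p = 0.0446), close to the threshold. Its neighbour Cmpk2 had 25.4, 47.7 and 93.8 TPM in resistant and 7.91, 33.6 and 58.6 TPM in parental tumors and was not called, at 0.58 ± 0.24 (SE, adjusted p = 0.071). Mx1 (0.17), Mx2 (0.32), Samhd1 (-0.11) and Isg20 (-0.19) were not called either. Isg20 had 43.9, 61.2 and 75.2 TPM in resistant and 44.9, 65.96 and 127 TPM in parental tumors. Rtp4, a receptor chaperone, rose by 0.36 ± 0.13 (SE, adjusted p = 0.0398).

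The ubiquitin ligases and ADP-ribosyltransferases gave a called member each. Parp12 had 96.7, 133 and 188 TPM in resistant and 55.6, 95.9 and 128 TPM in parental tumors and rose by 0.63 ± 0.15 (SE, adjusted p = 0.00183). Parp9 (0.23), Parp14 (0.32) and Dtx3l (0.35), the ligase that pairs with Parp9, lie side by side on chromosome 16 and were not called. Trim21, a receptor for antibody inside cells, averaged 52.9 ± 10.1 TPM in resistant tumors (SD, n = 12) and 35.2 ± 6.88 TPM in parental tumors (n = 13), 0.57 ± 0.11 (SE, adjusted p = 0.000344). Trim30a had 20.004, 56.3 and 90.4 TPM in resistant and 3.26, 37.6 and 64.7 TPM in parental tumors. Its difference of 0.75 was the largest positive one of the list but was not called (SE 0.34, adjusted p = 0.0942).

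The 3 members lower in resistant tumors were the membrane-associated genes Ifitm3 and Ly6e, and Ifi27l2a. Ifi27l2a averaged 116 ± 52.4 TPM in resistant tumors (SD, n = 12) and 275 ± 74.02 TPM in parental tumors (n = 13), a log2 fold change of -1.27 ± 0.18 (SE, adjusted p = 9.26e-06). Every resistant tumor lay below the parental mean, and 7 below the lowest parental tumor. Ly6e had 1072, 1569 and 2388 TPM in resistant and 1558, 2238 and 2827 TPM in parental tumors, a log2 fold change of -0.45 ± 0.12 (SE, adjusted p = 0.00593). Ifitm3 had 1576, 2094 and 4125 TPM in resistant and 1516, 3329 and 4158 TPM in parental tumors, -0.49 ± 0.17 (SE, adjusted p = 0.0277). In both of these genes 11 of 12 resistant tumors lay below the parental mean. Ifi35, at 25.3, 41.4 and 72.2 TPM in resistant and 34.4, 54.3 and 63.6 TPM in parental tumors, was not called (-0.31, adjusted p = 0.0807). Lgals3bp (-0.13) and Xaf1 (-0.08), a binder of the apoptosis inhibitor XIAP, were not called.

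**Figure D4:**
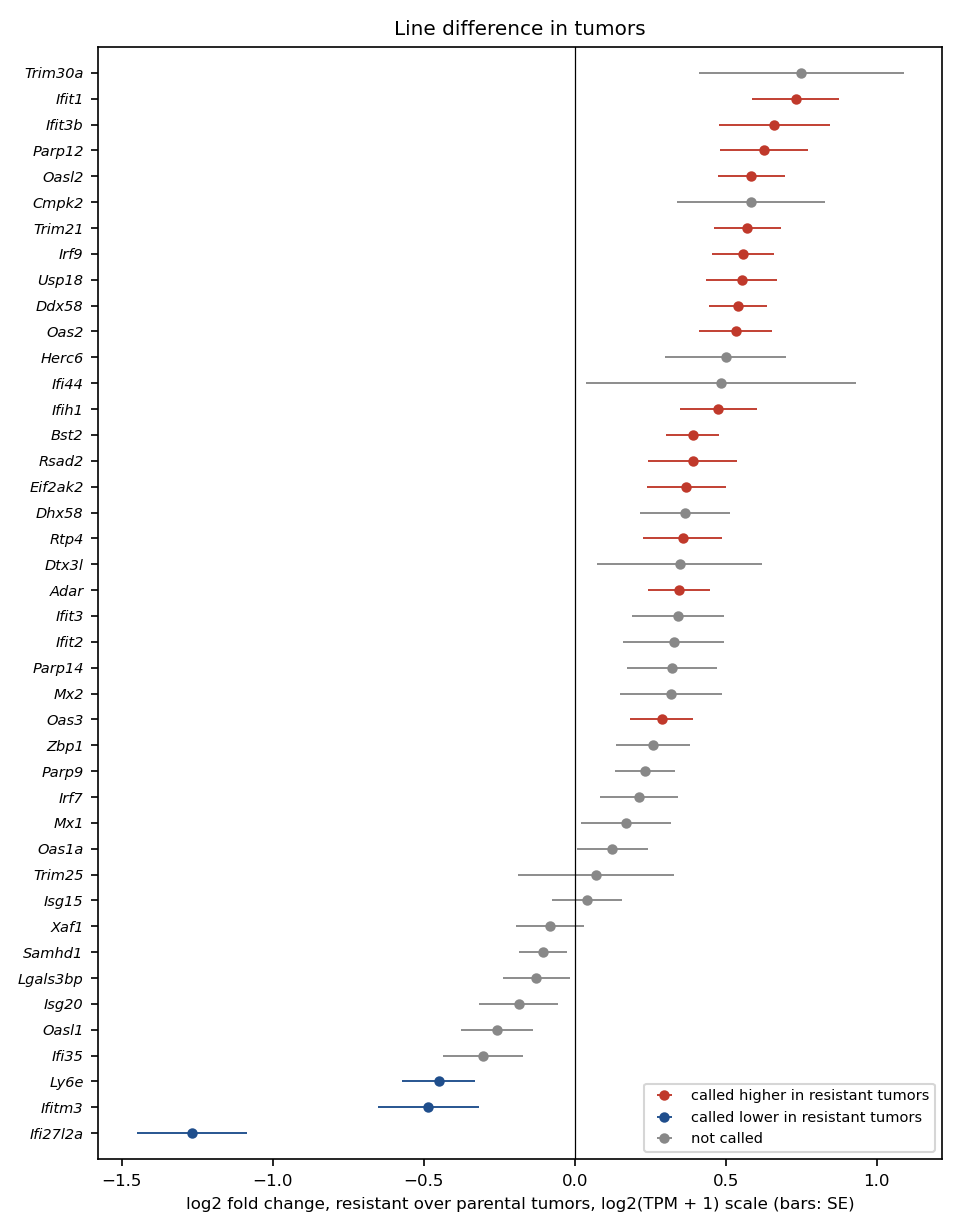
Log2 fold change of each member in resistant over parental tumors, on the log2(TPM + 1) scale with standard errors. Of the 42 members, 16 were called higher (red, 0.29 to 0.73), 3 were called lower (blue, down to -1.27 for Ifi27l2a) and 23 were not called (grey).

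Many members were high or low in the same tumors. The counts that follow were made over the members alone, with no share over all genes to set beside them. Resistant tumor 1 was the highest resistant tumor for 19 members and the lowest for 0, with 16195 TPM summed over the members. Resistant tumor 11 was the lowest for 10 members, at 8869 TPM. Parental tumor 2 was the lowest parental tumor for 20 members and parental tumor 3 for 10, at 7946 and 9128 TPM, and parental tumor 13 was the highest for 9, at 14189.7 TPM. The sums ran from 8869 to 16195 TPM over resistant tumors and from 7946 to 14189.7 TPM over parental tumors, and they overlapped widely. Leaving out single tumors gave between 12 and 19 members higher and between 3 and 5 lower, with 5 lower when parental tumor 2 was left out. Over all genes the shares then ran from 14.2% to 17.6% higher and from 12.6% to 14.4% lower.

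Some members were low in libraries of high GC index. This index, the median centred log2 level of GC-rich genes minus that of GC-poor genes, was computed for each library. It comes from gene levels, and the GC content of the reads was not measured. It was above 0.5 in 4 of 13 parental tumors (replicates 2, 3, 7 and 8) and in 0 of 12 resistant tumors. Ifi44, whose transcripts have 40.8% GC, had 44.4, 225 and 401 TPM in resistant and 23.6, 174 and 361 TPM in parental tumors, and the 4 parental tumors lay between 23.6 and 52.6 TPM. Its log2 fold change was 0.48 and not called, but with the GC index as a covariate it was -0.63 and called lower (adjusted p = 0.00993). Trim25 was at 0.07, and with the covariate at -0.54 and called lower (adjusted p = 0.00224). Dtx3l and Trim30a likewise turned to -0.27 and -0.05 with the covariate, neither called, and Isg20 and Lgals3bp to 0.041 and 0.0031, so the sign of these 6 genes depended on the covariate. With the covariate the list had 15 members higher and 6 lower, where 18% of all genes were called higher and 15.1% lower. Without the 4 parental tumors the list had 14 higher and 4 lower, against 14.1% and 13.4% of all genes. The calls for Irf9, Ddx58, Ifih1, Usp18, Ifit1, Ifit3b, Oas2, Oasl2, Bst2, Parp12, Trim21, Adar and Ifi27l2a, 13 of the 19, were made under all 36 alternatives other than the 2-fold minimum. Rsad2 lost its call under 21 of the 36, Rtp4 under 20, Oas3 under 16, Eif2ak2 under 10, Ifitm3 under 4 and Ly6e under 1.

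**Figure D5:**
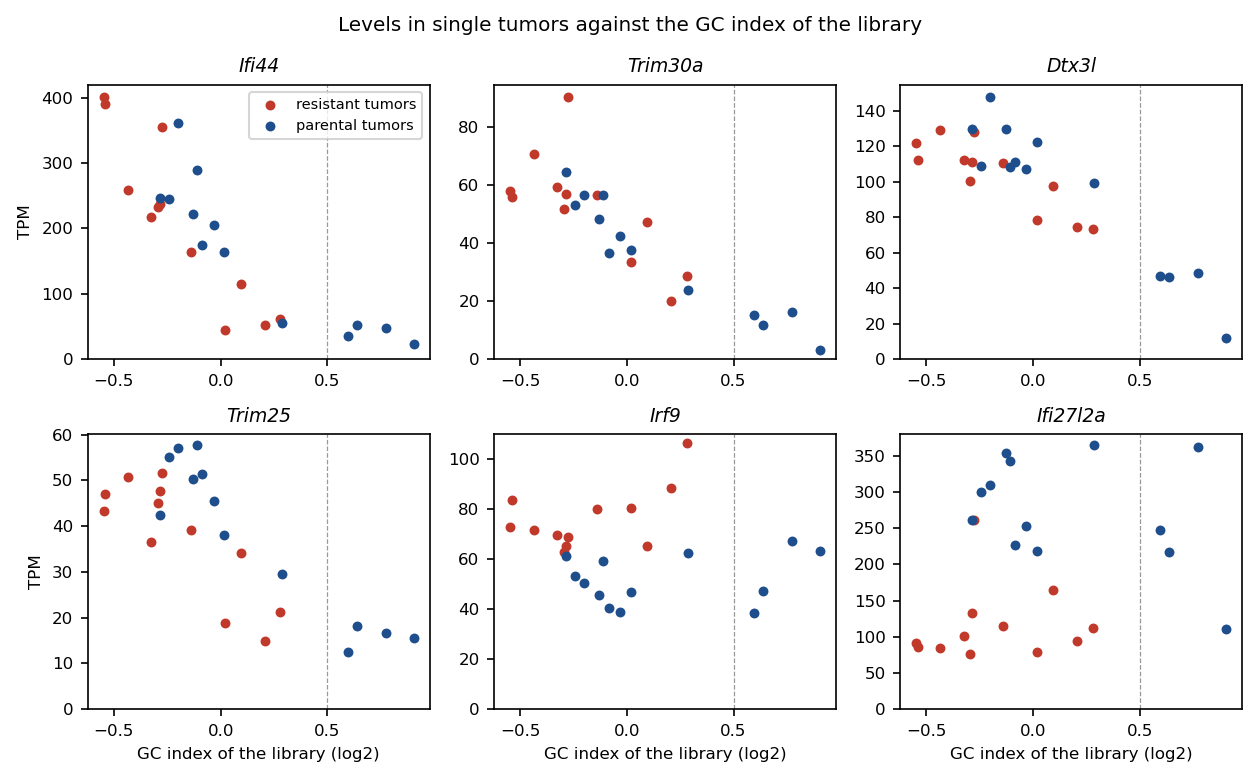
Levels of 6 members in single tumors, in TPM, against the GC index of the library on a log2 scale, for resistant (red) and parental (blue) tumors; the dashed line marks an index of 0.5. The 4 parental tumors right of it are low in Ifi44, Trim30a, Dtx3l and Trim25, and span 38.6 to 67.2 TPM in Irf9 and 110.8 to 363 TPM in Ifi27l2a.

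Markers of some leukocytes were lower in resistant tumors. The sum of 6 macrophage markers had a median of 257 TPM in resistant tumors (range 193 to 363) and 568 TPM in parental tumors (186 to 784), and 5 of the 6 were called lower in resistant tumors. The sums in culture were at most 2.18 TPM. Of the markers tested, 2 of 3 for NK cells, 2 of 3 for neutrophils and 1 of 1 for B cells were also lower. The other NK marker, Klrb1c, was not called, and its mean was higher in resistant tumors (1.46 TPM) than in parental tumors (0.908 TPM). None of 3 markers for T cells was called. Nor was Cox6a2, the 1 tested for plasmacytoid dendritic cells, which cultures also held at up to 4.89 TPM. Zbtb46, the 1 tested for conventional dendritic cells, was higher, but cultures held it too, at means of 3.09 TPM (resistant) and 1.61 TPM (parental). The other markers of that list were not tested here and had lower means in resistant than in parental tumors. These were 0.380 and 0.554 TPM for Flt3, 0.0939 and 0.483 TPM for Xcr1, and 0.314 and 0.863 TPM for Clec9a. Ptprc ranged from 19.7 to 50.3 TPM in resistant and from 14.5 to 53.7 TPM in parental tumors and was not called, at -0.35 (adjusted p = 0.125). With Ptprc as a covariate 27 members were higher and 2 lower in resistant tumors, where 25.2% and 19.2% of all genes were called. No other test was made of the part of these cells in the line difference.

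The line difference in tumors was also set against that in culture, with an interaction term over all 32 libraries. It was higher in tumors for 4 members, lower for 0 and not called for 38, while 2.4% of all genes were called higher and 1.61% lower. At an unadjusted p under 0.05 there were 11 higher and 1 lower. That count was not made over all genes, so it has no share to be set against. The 4 were Oas3 at 2.26 ± 0.37 (SE, adjusted p = 0.000114), its neighbour Oas2 at 2.14 ± 0.42 (SE, adjusted p = 0.00108), Bst2 at 1.17 ± 0.25 (SE, adjusted p = 0.00349) and Lgals3bp at 1.12 ± 0.26 (SE, adjusted p = 0.00752). Oas3 had 40.1, 58.3 and 73.04 TPM in resistant and 34.8, 43.8 and 61.03 TPM in parental tumors, and Lgals3bp had 313, 407 and 594 TPM in resistant and 345, 458 and 633 TPM in parental tumors. In culture both lay lower in every resistant library than in either parental one. All 4 calls rested on parental culture replicate 2 and ended without it. The members' median interaction was then -0.13, against -0.04 over all genes, with Zbp1 at -1.97 and Oasl1 at -1.28. Without replicate 1 the members' median was 1.32, against 0.02 over all genes.

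The upstream parts of the pathway were measured beside the members. Of 20 genes for type I and type III interferons none was high enough to be tested in any comparison. Their sum had a median of 1.33 TPM in resistant tumors, 0.529 in parental tumors, 0.141 in resistant culture and 0.0856 in parental culture. It ranged from 0.102 to 2.15 TPM in resistant and from 0 to 3.71 TPM in parental tumors, so the lines overlapped. In each culture group 19 of the 20 genes were listed at 0 in every library. Among the receptor and signaling genes, some were higher in resistant tumors. Stat2 had 73.3, 112 and 149.5 TPM in resistant and 47.8, 78.9 and 102 TPM in parental tumors and rose by 0.55 ± 0.12 (SE, adjusted p = 0.000964). The receptor chain Ifnar1 (0.40) and Jak1 (0.60) were also higher, and Ifnar2 (-0.17) and Tyk2 (0.09) were not called. Of 4 tested feedback inhibitors outside the list, Socs1 (0.35) and Ptpn2 (0.47) were higher and the phosphatase Ptpn6 (-0.76), which leukocytes express, was lower in resistant tumors. Of 12 sensors and adaptors upstream of interferon, 3 were higher (Irf3, Tbk1 and Traf3) and 3 lower (Tmem173, Mavs and Tlr7). Of 50 other interferon-induced genes tested in tumors, 11 were higher and 5 lower in resistant tumors, with a median of 0.12, against 16.3% of all genes higher and 13.9% lower. Among those 5 were Ifitm1 (-2.65) and Ifitm2 (-0.60), relatives of Ifitm3.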

How the data were processed

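Poly(A) RNA of 25 tumors and 7 cultures was prepared with Qiagen kits, DNase and KAPA HyperPrep kits, per the labels. The authors deposited a table of TPM by mouse gene symbol, of which all 32 columns entered the work. The names STAR and GRCh38 appear in the submitters' processing notes, without versions or roles. GRCh38 is a human build, yet 98.4% of the symbols occur in GENCODE mouse release M21. The quantifier is not given in the sources used here. Because TPM adds up to the same total everywhere, depth is unknown and precision comes from the spread among libraries. No label states that a group's cultures were separate, so p-values in culture may measure technical spread alone. Descriptions gave the groups, deposition order gave the replicate numbers, and no samples are paired.

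Limma 3.58.1 (R 4.3.3) was fitted to the libraries of each comparison on the log2(TPM + 1) scale, using eBayes with a trend. P-values are two-sided and Benjamini-Hochberg adjusted across the tested genes, and calls needed an adjusted p under 0.05. Genes entered when at least as many libraries as the smallest group reached 1 TPM. Fold changes put resistant over parental and tumor over culture. The interaction, over 32 libraries, subtracts the line difference in culture from that in tumors. Scripts were tested on simulated data. A gene of the signaling pathway is not reported here. Members and gene lists were chosen with earlier results of these data known. Values by sample are given for the 6 highest and 4 lowest members in culture, the 6 largest positive and negative line differences, the 5 largest rises in tumors, members called in the interaction and 16 fixed representatives.

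For the GC index, 2243 genes had a GC fraction over 0.55 and 885 one under 0.42, and GENCODE transcripts covered 98.6% of the 10046 expressed genes. Shared sequence was counted in words of 50 bases over the same transcripts. Promoters come from RefSeq (GRCm38.p6). The alternatives covered the pseudocount (0.1), the filter (none, or 5 TPM), the scaling (quantile or median-of-ratios), array weights, a 2-fold minimum, a single fit of all libraries, covariates (Ptprc, GC index), the parental tumors of high GC index left out, a rank-sum test and each library left out. Python 3.11.15, numpy 2.4.6, pandas 2.3.3 and matplotlib 3.10.9 did the remaining steps.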

Additional observations from a re-analysis of the deposited data

Results flagged for a closer look

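Of the 42 members, 6 had 1 resistant culture far from the other 4, at a limit that chance passes in about 1 in 20 groups. The same count over all genes was not made, so the count of members has no share to be set against. Isg20 was 30.5 TPM in resistant culture 1, against 14.3 to 17.6 TPM in the other 4. Ddx58 was 52.7 TPM in the same library, against 31.2 to 36.9 TPM. Ly6e was 1401 TPM there, against 409 to 527 TPM, and Ifi27l2a was 3.82 TPM there and listed at 0 in the other 4. Parp12 was 43.99 TPM in resistant culture 2, against 33.6 to 36.3 TPM, and Irf9 was 8.91 TPM in resistant culture 3, against 14.6 to 16.7 TPM. Resistant culture 1 thus held 4 of the 6 values, and whether it also stands apart over all genes was not tested. Leaving it out gave 0 members higher and 7 lower in resistant culture, against 8.32% and 10.7% of all genes.

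The line difference in tumors exceeded that in culture by the interaction test for Oas3 (2.26 on the log2 scale), Oas2 (2.14), Bst2 (1.17) and Lgals3bp (1.12). In tumors Oas3, Oas2 and Bst2 were called higher in the resistant line and Lgals3bp was not called, and in culture Oas3 and Lgals3bp were called lower. The 4 interaction calls ended without parental culture replicate 2. With 2 parental cultures, the level of that library and a line difference cannot be told apart.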

How the results depend on the processing

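In tumors, where 16 members were higher and 3 lower in the resistant line, a 2-fold minimum left 0 higher and 1 lower, and Ptprc as a covariate gave 27 higher. Members lower numbered 5 under array weights (16.2% of all genes) and 6 with the GC covariate (15.1%), and the members' median of 0.34 became 0.24 and 0.12. In culture, quantile normalization and 1 fit over all libraries each gave 1 member higher (7.60% and 3.49% of all genes). No filter gave 1 lower (5.56%), against 7 lower in the fit over all libraries (5.23%). Array weights gave 8 members with a positive interaction, against 5.54% of all genes. Leaving out single libraries gave 3 to 5 members lower in resistant tumors, 0 to 1 higher and 0 to 8 lower in resistant culture, 23 to 39 higher in parental tumors over culture, and 0 to 17 positive and 0 to 2 negative interactions. Where 1 parental culture was left, it was assumed to vary like the other groups. Signs turned in tumors for Ifi44 (-0.63 with the GC covariate, -0.24 without the 4 parental tumors of high GC index), Dtx3l (-0.27 and -0.20), Trim25 (-0.54 and -0.40, and -0.14 with array weights), Trim30a (-0.054 with the covariate), Isg20 (0.041 and 0.011), Lgals3bp (0.0031 with the covariate) and Isg15 (-0.012 with array weights). The cause was not tested. Leaving out single libraries put Isg15 between -0.014 and 0.090 and Trim25 between -0.044 and 0.18 in tumors. In culture the range without 1 library was -1.70 to 0.83 for Isg15, -3.19 to 0.40 for Ifi44, -0.76 to 2.004 for Ifit1, -1.08 to 1.96 for Irf7, -1.42 to 2.23 for Zbp1 and -0.12 to 0.79 for Adar, each end set by leaving out 1 of the parental cultures. Over the single genes, alternatives other than leaving out a library gave 546 values of the same sign and call, 25 newly called, 51 no longer called and 11 of the other sign, and leaving out a library gave 1121, 14, 69 and 12. No paired analysis was possible because the labels give no replicate numbers that groups share. Depth is unknown, 2 parental cultures limit every comparison with culture, and levels near 1 TPM cannot show small changes.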

Other observations

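Members that lie side by side on a chromosome did not always pass together. Rsad2 and Cmpk2 on chromosome 12 were at 0.39 and 0.58 in resistant over parental tumors, and the smaller difference alone was called. Ifit2 and Ifit3 on chromosome 19 were at 0.33 and 0.34, neither called. Among members, the spread over parental tumors was widest for Trim30a, whose highest value was 19.8 times its lowest, Ifi44 (15.3 times) and Dtx3l (12.3 times). Over resistant tumors it was widest for Ifi44 (9.03 times) and Trim30a (4.52 times). It was narrowest over parental tumors for Samhd1 (1.44 times) and over resistant tumors for Bst2 (1.45 times).

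Other interferon-induced genes, outside the 42, were also higher in tumors than in culture. Of those tested, 46 of 49 were higher and 1 lower in the resistant line, and 41 of 50 were higher and 0 lower in the parental line. Of all genes, 35.3% were higher in the resistant line and 16.1% in the parental line. In culture 3 of 41 were higher in the resistant line and 1 lower, where 6.15% of all genes were called higher and 8.04% lower. Of 7 genes of the interferon gamma side tested in culture, 2 were higher and 0 lower in the resistant line. Genes of that side were also higher in tumors than in culture, 9 of 9 tested in the resistant line and 7 of 10 in the parental line. In resistant over parental tumors 2 of 10 were higher and 1 lower, against 16.3% and 13.9% of all genes.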
